A study of Mus musculus with 33 samples.

Results

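The NF-κB family was described here through 10 genes, namely the subunits *Rela*, *Rel*, *Relb*, *Nfkb1* and *Nfkb2* and the inhibitors *Nfkbia*, *Nfkbib*, *Nfkbie*, *Nfkbid* and *Nfkbiz*. They were taken by symbol from the 24421 genes counted by bulk RNA-seq in sorted mouse macrophages (macs), and all 10 were present in each of the 33 samples. The macs were Kupffer cells (KCs), which reside in the liver sinusoids, and alveolar macs (AMs), which reside in the lung airspaces, from C57Bl/6 mice at 6 to 8 weeks of age. The study used mice of both sexes, but *Ddx3y*, a Y-linked gene, was over 1 CPM in 6 of 18 liver and 0 of 15 lung samples. Every mouse carried *Zeb2* fl/fl alleles. CRE- KCs (n = 6) and CRE- AMs (n = 5) came from *Zeb2* fl/fl mice without a Cre. The *Clec4f-cre*x*Zeb2* fl/fl strain expresses Cre from the KC gene *Clec4f*, and its CRE+ KCs were sorted into Tim4+ KCs (n = 6) and Tim4- KCs (n = 6). The *Itgax-cre*x*Zeb2* fl/fl strain expresses Cre from the CD11c gene, and its CRE+ AMs were sorted into CD11b- AMs (n = 5) and CD11b+ AMs (n = 5). These groups have limits as models of ZEB2 loss. *Clec4f-cre* is also active in a small population of B cells, *Itgax-cre* acts in other CD11c-expressing cells as well, and macs from both CRE+ strains include cells that kept 1 *Zeb2* allele. The labels give no Tim4 or CD11b sort for CRE- cells, and the paper relates Tim4 on KCs to time spent in the tissue. Deletion and sorted subset therefore cannot be told apart when a CRE+ sort is compared with CRE- cells. The labels do not say whether the samples of a group are separate animals, so the p-values measure the spread between these samples, which may be technical.

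NF-κB transcription factors are dimers of the REL-homology proteins. RelA, c-Rel and RelB carry a transactivation domain, whereas *Nfkb1* and *Nfkb2* encode precursors that are cut to DNA-binding subunits and that can themselves act as inhibitors. In resting macs the dimers are held in the cytoplasm by IκBα (*Nfkbia*), IκBβ (*Nfkbib*) and IκBε (*Nfkbie*). Microbial products and cytokines activate the IκB kinase (IKK) complex, the inhibitors are degraded and the dimers enter the nucleus, where they switch on cytokine, chemokine and survival genes. *Nfkbia* and several other family members are themselves NF-κB target genes, and this gives the pathway its feedback. IκBNS (*Nfkbid*) and IκBζ (*Nfkbiz*) act in the nucleus, where they modify transcription at selected promoters. Transcript levels do not report where the proteins are or whether they bind DNA.

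Between 9837240 and 24332306 reads per sample fell on genes, with a median of 20683608, and the shallowest library was replicate 1 of the Tim4- KCs. Levels are given as CPM, read counts scaled to TMM-adjusted library size, as mean ± SD over the samples of a group. The members had between 45 and 8661 counts per sample, so none was near the limit of detection. *Clec4f* was at 10892 ± 605 CPM in CRE- KCs (n = 6) and 0.27 ± 0.13 CPM in CRE- AMs (n = 5). *Timd4*, the Tim4 gene, was at 708 ± 31.9, 381 ± 54.9 and 2.80 ± 3.27 CPM in CRE-, Tim4+ and Tim4- KCs (n = 6 each), and *Itgam*, the CD11b gene, was at 1.92 ± 1.12, 17.7 ± 3.33 and 265 ± 18.03 CPM in CRE-, CD11b- and CD11b+ AMs (n = 5 each). *Zeb2* itself was at 282 ± 37.6, 174 ± 25.9 and 169 ± 15.4 CPM in the same 3 KC groups and 195 ± 17.1, 105 ± 11.8 and 62.5 ± 7.79 CPM in the 3 AM groups. The deleted allele can leave a shortened transcript, so counts over the whole gene do not measure how completely it was removed. In bulk samples, fewer cells that express a gene and less RNA per cell cannot be told apart.

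The members lie on 7 chromosomes of GRCm38 (GENCODE M21). *Rela* occupies chromosome 19 from 5637483 to 5648130 on the plus strand, and *Nfkb2* the same chromosome from 46304320 to 46312385, also on the plus strand. *Nfkbid* (30421732 to 30428746, plus), *Nfkbib* (28758251 to 28767512, minus) and *Relb* (19606217 to 19629438, minus) are on chromosome 7. *Rel* is on chromosome 11 (23736847 to 23770970, minus), *Nfkbia* on chromosome 12 (55489410 to 55492647, minus), *Nfkbiz* on chromosome 16 (55811375 to 55838899, minus), *Nfkbie* on chromosome 17 (45555703 to 45563169, plus) and *Nfkb1* on chromosome 3 (135584655 to 135691547, minus). *Nfkb2* shares 299 exon bases with *Psd*, which stayed between 1.09 and 1.83 CPM in the group means. *Nfkbib* shares 42 exon bases with *Sirt2*, which had group means of 70.3 to 138 CPM. Whether the counting used strand is not given in the sources used here, so reads in these stretches cannot be assigned with certainty.

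Several of these genes carry letters that match the κB consensus, a motif of NF-κB binding sites. Sequence is shown for the members with a match, with matches in capitals. The RefSeq promoter table for GRCm38.p6 held the 250 bases before a transcript start for 7 of the 10 members, with 11 windows in all. On either strand, 5 of the 7 held a match to the 10-letter κB consensus: *Nfkbia*, *Nfkbie*, *Nfkbid*, *Rel* and *Nfkb2*. *Rela* and *Nfkbib* had a window without these letters. Of 27025 genes in the table, 8.23% had such a match, as did 7.25% of the 32851 windows. A match describes the letters only and does not show that a factor binds there.
*Nfkbia*, chr12:55492648-55492897, minus strand: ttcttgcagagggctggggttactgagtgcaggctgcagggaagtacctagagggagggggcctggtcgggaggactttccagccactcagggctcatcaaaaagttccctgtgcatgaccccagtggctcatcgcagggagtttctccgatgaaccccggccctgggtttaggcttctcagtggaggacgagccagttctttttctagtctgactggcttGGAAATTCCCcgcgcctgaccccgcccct
*Nfkbie*, chr17:45555450-45555699, plus strand: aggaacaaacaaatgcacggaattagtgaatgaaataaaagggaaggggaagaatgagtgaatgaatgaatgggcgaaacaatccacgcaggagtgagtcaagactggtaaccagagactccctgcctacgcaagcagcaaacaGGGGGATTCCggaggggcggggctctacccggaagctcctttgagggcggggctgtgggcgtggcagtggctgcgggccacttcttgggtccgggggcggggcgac
*Nfkbid*, chr7:30422156-30422405, plus strand: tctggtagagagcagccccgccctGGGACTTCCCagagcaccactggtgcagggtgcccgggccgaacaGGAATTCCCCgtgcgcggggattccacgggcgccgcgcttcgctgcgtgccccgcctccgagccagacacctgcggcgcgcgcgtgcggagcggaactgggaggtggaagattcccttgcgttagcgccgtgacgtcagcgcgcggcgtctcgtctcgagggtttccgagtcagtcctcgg
The match of *Nfkbia* starts at position -29 from the transcript start, and that of *Nfkbie* at -106. The *Nfkbid* window belongs to an alternative RefSeq start inside the annotated gene, and its matches start at positions -226 and -181 from that start. In *Rel* and *Nfkb2* the capitals mark a pair of matches that overlap in all but 1 base, and only the 30 bases around them are shown. *Nfkb2* had a further match at -11 in the same window, and others at -236 and -225 in its other windows. The *Nfkb2* windows also belong to RefSeq starts inside the annotated gene.
*Rel*, chr11:23771041-23771070, minus strand: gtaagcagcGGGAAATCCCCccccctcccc
*Nfkb2*, chr19:46304689-46304718, plus strand: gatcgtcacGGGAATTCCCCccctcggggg

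Per kilobase of merged exons, *Nfkbia* was the most abundant member and *Rela* the second in CRE- KCs and in CRE- AMs. In CRE- KCs (n = 6) *Nfkbia* had 165 ± 16.6 CPM per kb and *Rela* 51.9 ± 4.76. *Nfkbie* (20.9 ± 2.82) and *Nfkbib* (20.7 ± 2.70) followed within each other's spread, as did *Nfkb2* (12.2 ± 2.87) and *Relb* (11.2 ± 1.44). *Nfkbiz* had 7.89 ± 2.88, *Nfkb1* 5.41 ± 0.876, *Rel* 2.25 ± 0.293 and *Nfkbid* 1.93 ± 0.470 CPM per kb, and within this tail *Nfkbiz* and *Nfkb1*, and likewise *Rel* and *Nfkbid*, lay within their spread. CRE- AMs (n = 5) differed in the middle of the order. After *Nfkbia* (149 ± 9.52), *Rela* (61.6 ± 5.29) and *Nfkbib* (24.6 ± 3.54) came *Nfkbid* (19.2 ± 1.27) and *Nfkb2* (18.1 ± 4.69), which did not differ beyond their spread. *Nfkbie* (7.89 ± 0.735), *Relb* (7.33 ± 1.16) and *Nfkbiz* (6.87 ± 1.81) were close to one another, and *Rel* (3.57 ± 0.713) and *Nfkb1* (3.50 ± 0.372) were lowest. *Nfkb1* depends on the length used, since its merged exons span 12061 bases and its longest transcript 4149. By the longest transcript, it had 15.7 CPM per kb in CRE- KCs and 10.2 in CRE- AMs.

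Within a sample, each class of genes kept a main member. *Rela* gave 59.7% to 65.5% of the CPM per kb summed over the 5 subunits in the group means, with little difference among the 6 groups. *Relb* gave 13.5% ± 1.51 in CRE- KCs (n = 6) and 7.80% ± 1.25 in CRE- AMs (n = 5), and 11.4% ± 2.104 in CD11b+ AMs (n = 5). Among the 3 cytoplasmic inhibitors, *Nfkbia* gave 79.8% ± 1.45 in CRE- KCs (n = 6), 82.1% ± 1.33 in CRE- AMs (n = 5) and 83.5% ± 1.81 in CD11b- AMs (n = 5). It gave 72.9% ± 3.63 in CD11b+ AMs (n = 5), where the highest sample (78.7%) lay below the lowest sample of the other AM groups (80.2%). *Nfkbie* accounted for 4.35% ± 0.423 of this class in CRE- AMs, 5.46% ± 0.618 in CD11b- AMs and 9.67% ± 2.06 in CD11b+ AMs (n = 5 each), against 10.02% to 10.5% in the means of the 3 KC groups. The shares are a description and were not tested.

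**Figure D1:**
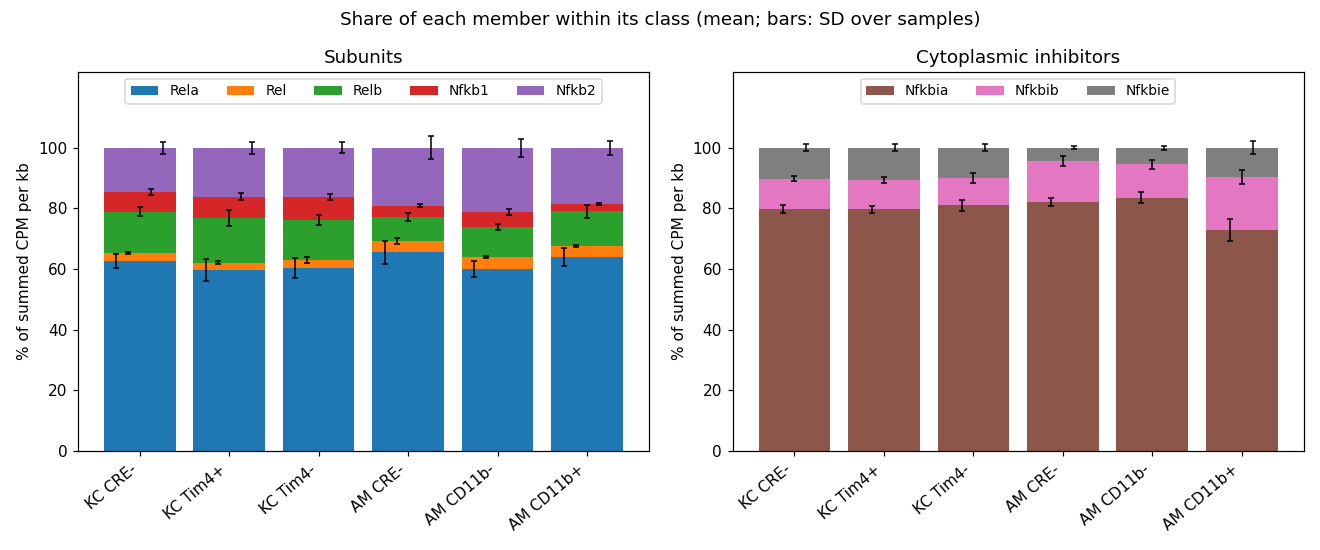
Share of each gene in the CPM per kb of merged exons summed over its class, for the 5 subunits and the 3 cytoplasmic inhibitors; stacked bars give the mean of each group and error bars the SD over its samples (n = 6 for KCs, n = 5 for AMs). *Rela* holds more than any other subunit in all groups, and the *Nfkbia* share is lowest in CD11b+ AMs at 72.9%.

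The members varied over the 6 groups to unequal extents. The mean CPM of the highest group was 13.7 times that of the lowest for *Nfkbid*, 3.12 times for *Nfkbie*, 2.48 times for *Nfkb1* and 2.02 times for *Rel*. For *Nfkbiz*, *Nfkbia*, *Relb* and *Nfkb2* it was 1.961, 1.65, 1.64 and 1.61 times, and for *Rela* and *Nfkbib* 1.47 and 1.38 times. *Nfkbid* had its lowest group mean in CRE- KCs, with samples between 3.30 and 6.39 CPM, and all 3 KC groups lay under all 3 AM groups. *Rela*, *Rel*, *Relb*, *Nfkb2*, *Nfkbib* and *Nfkbiz* had their highest mean in CD11b+ AMs, whereas *Nfkb1* and *Nfkbia* had their lowest mean there.

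**Figure D2:**
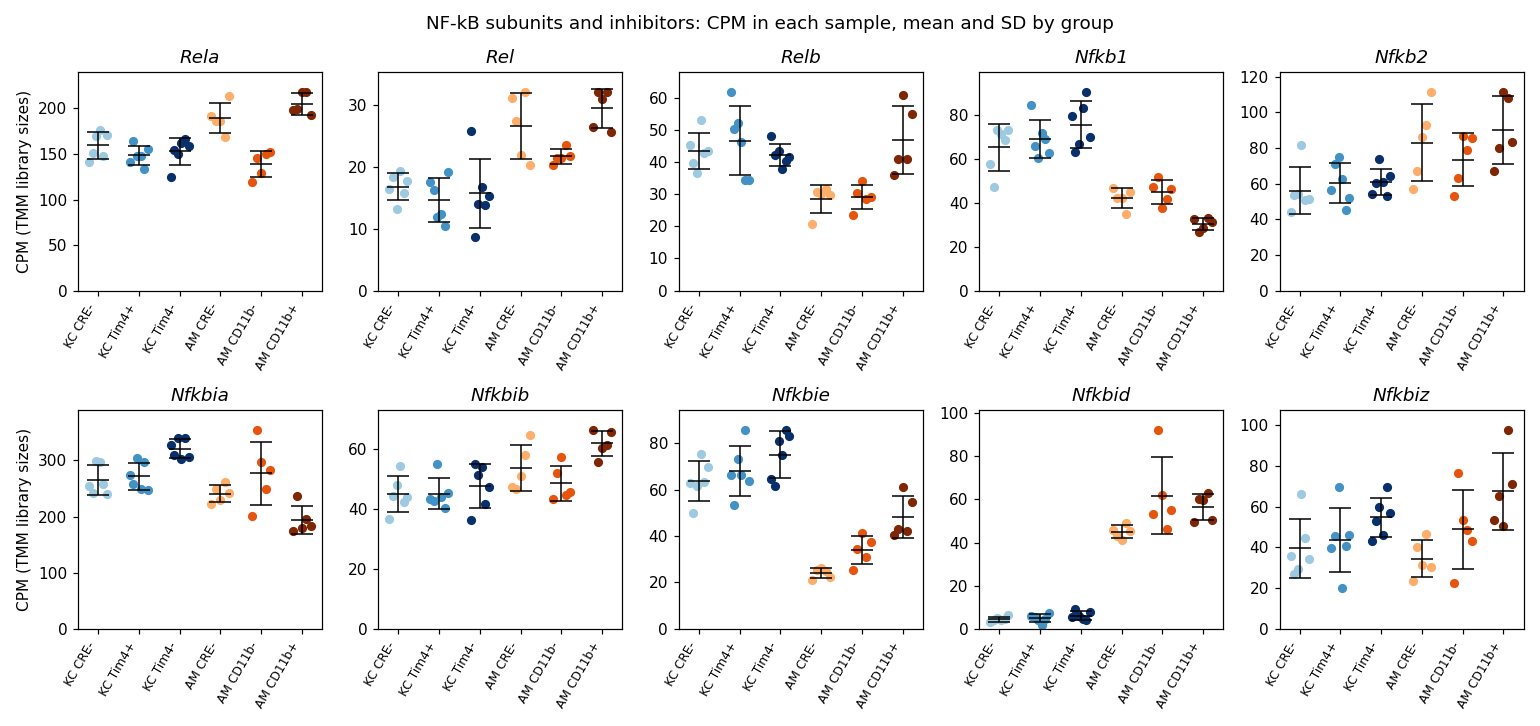
CPM (TMM-scaled library sizes) of the 10 members, 1 panel per gene, in each of the 33 samples by group; points are samples, bars give the mean and SD of each group, and each y axis starts at 0. *Nfkbid* is low in every KC sample, and *Nfkbie* and *Relb* stand higher in CD11b+ AMs than in CRE- AMs without overlap.

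The comparison of CRE- KCs with CRE- AMs asks how the family differs between resident macs of the liver and of the lung. KCs had more transcript of *Nfkbie*, *Relb* and *Nfkb1* and less of *Nfkbid*, *Rel*, *Nfkb2* and *Rela*. Thus 7 of the 10 members passed an adjusted p of 0.05 (quasi-likelihood test of edgeR, Benjamini-Hochberg adjusted over 12145 genes), in a comparison in which 63.2% of all genes passed. Past a 2-fold change there were 2 members, beside 33.3% of all genes, and 5 members did not overlap between the groups, beside 48.9%. The median log2 fold change was -0.03 over the members and 0.03 over all genes tested.

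*Nfkbid*, whose product IκBNS acts in the nucleus, ranged from 3.30 to 6.39 CPM with a median of 4.22 in CRE- KCs (n = 6) and was 45.9, 43.0, 41.3, 49.1 and 45.4 CPM in the 5 CRE- AM samples. The groups were far apart, with a log2 difference of -3.28 (SE 0.15, adjusted p = 1.4241e-10 from edgeR), or 9.72-fold lower in KCs. *Nfkbie*, the gene for IκBε, ran the other way, from 49.9 to 75.4 CPM with a median of 62.9 in KCs and at 21.2, 25.5, 26.4, 24.9 and 22.2 CPM in AMs. Its lowest KC sample was above its highest AM sample, and the log2 fold change was 1.43 (SE 0.11, adjusted p = 3.319e-08 from edgeR).

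Among the subunits, *Nfkb1* had 65.3 ± 10.6 CPM in CRE- KCs (n = 6) and 42.2 ± 4.49 CPM in CRE- AMs (n = 5), a log2 difference of 0.66 (SE 0.12, adjusted p = 0.00027 from edgeR). *Relb*, whose protein mostly pairs with the product of *Nfkb2*, had 43.4 ± 5.59 and 28.5 ± 4.49 CPM, a log2 difference of 0.64 (SE 0.13, adjusted p = 0.00049). Neither gene overlapped between KCs and AMs. *Rel*, the gene for c-Rel, was lower in every KC sample (16.8 ± 2.19 against 26.7 ± 5.32 CPM), with a log2 difference of -0.63 (SE 0.14, adjusted p = 0.0014). *Nfkb2* (56.0 ± 13.2 against 83.0 ± 21.5 CPM) and *Rela* (159 ± 14.6 against 189 ± 16.2 CPM) overlapped between the tissues. Their log2 fold changes were -0.54 (SE 0.18, adjusted p = 0.016) and -0.22 (SE 0.08, adjusted p = 0.024), and both calls depended on the setting. *Rela* passed neither with DESeq2, RLE factors or a minimum of 10 counts in every sample nor without AM replicate 5 or KC replicate 1, 2 or 5 (adjusted p = 0.051 to 0.093). *Nfkb2* did not pass with *Ddx3y* as a covariate (adjusted p = 0.054) or without AM replicate 5 (adjusted p = 0.055).

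*Nfkbia* (265 ± 26.7 CPM in KCs, n = 6, and 241 ± 15.3 CPM in AMs, n = 5), *Nfkbib* (44.9 ± 5.85 and 53.4 ± 7.67) and *Nfkbiz* (39.6 ± 14.5 and 34.5 ± 9.06) did not pass. Their log2 fold changes were 0.17 (adjusted p = 0.067), -0.22 (adjusted p = 0.098) and 0.23 (adjusted p = 0.40) in edgeR's test. *Nfkbia* passed with DESeq2, RLE factors, the minimum of 10 counts and the *Ddx3y* covariate, with adjusted p from 0.025 to 0.037, and also without KC replicate 2 or 6 (adjusted p = 0.031 and 0.035). *Nfkbib* passed without KC replicate 4 (log2 fold change -0.28, adjusted p = 0.039). Genes that respond quickly when tissue is dissociated differed in the same comparison. A list of 22 of them summed to between 1622 and 2185 CPM in CRE- KCs and between 8377 and 9301 CPM in CRE- AMs, and 17 of the 22 were lower in KCs, with none at 0. The part of handling in the member differences was not tested.

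The second question was how the family in each CRE+ KC sort of the *Clec4f-cre* strain differed from that in CRE- KCs. In Tim4+ KCs no member passed against CRE- KCs by edgeR's quasi-likelihood test, in a comparison in which 6.09% of 12500 genes did. None had an unadjusted p under 0.05, no member was free of overlap (4.86% of genes were), and limma-voom and DESeq2 called 0 members as well. The log2 fold changes lay between -0.22 (*Rel*) and 0.11 (*Nfkbiz*), with a median of 0.07 beside -0.003 over all genes. The 95% intervals (by a normal approximation) of the 10 differences lay within -0.62 and 0.65, the bounds set by the least precise members, *Rel* and *Nfkbid*. For *Nfkbia* the interval was -0.13 to 0.16 and for *Rela* -0.28 to 0.03.

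In Tim4- KCs *Nfkbia* was the single member that passed, in a comparison in which 25.4% of genes did. *Nfkbia* ranged from 239 to 299 CPM with a median of 256 in CRE- KCs, from 248 to 304 with a median of 266 in Tim4+ KCs and from 302 to 340.1 with a median of 318 in Tim4- KCs (n = 6 each). All Tim4- samples lay above all CRE- samples (10.8% of genes did not overlap in that comparison), whereas the highest Tim4+ sample exceeded the lowest Tim4- sample. Against CRE- KCs, the log2 fold change was 0.26 (SE 0.07, adjusted p = 0.012 from edgeR), a 1.20-fold difference. At the threshold of 0.05 it passed with each other tool, scaling, filter, covariate and sample set and without each library (adjusted p = 0.0026 to 0.033), but it is below a 2-fold change, and without the shallow Tim4- replicate 1 it was 0.25 (adjusted p = 0.018).

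Between the 2 CRE+ sorts of the liver, *Nfkbia* was again the only member past the threshold, where 11.5% of genes passed. No member was free of overlap, beside 5.77% of genes. *Nfkbia* was higher in Tim4- than in Tim4+ KCs, with a log2 difference of 0.24 (SE 0.07, adjusted p = 0.032 from edgeR). This call was lost when all 33 samples shared the fit (adjusted p = 0.079) and without Tim4+ replicate 1, 2, 4 or 6 or Tim4- replicate 3 or 5 (adjusted p = 0.054 to 0.082). It was kept with the replicate number, by which the samples of these sorts pair, as a block. The refits without a library had no block.

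The other members of the inhibitor class had higher means in Tim4- than in CRE- KCs without passing. *Nfkbiz* went from 39.6 ± 14.5 to 54.7 ± 9.68 CPM (log2 fold change 0.45, 95% interval -0.001 to 0.90), *Nfkbid* from 4.52 ± 1.103 to 6.17 ± 2.002 (0.43, -0.11 to 0.98) and *Nfkbie* from 63.7 ± 8.59 to 75.0 ± 10.1 (0.22, -0.007 to 0.45), n = 6 each. The subunits lay between -0.12 (*Rel*) and 0.20 (*Nfkb1*) on the log2 scale. Without CRE- replicate 4 *Nfkbiz* passed (log2 fold change 0.66, adjusted p = 0.032 from edgeR). *Rel* was variable in Tim4- KCs, from 8.64 to 25.8 CPM. Over the members the median log2 fold change was 0.15, beside -0.03 over all genes.

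Markers of other cells and of handling moved with the Tim4- sort. The 22 dissociation genes summed to 1857 CPM (median, range 1622 to 2185) in CRE- KCs, 1867 CPM (1657.5 to 2574) in Tim4+ KCs and 2457 CPM (1835 to 3327) in Tim4- KCs. By edgeR's test 9 of them were higher and 1 lower in Tim4- than in CRE- KCs. The 6 monocyte markers, all in the files and none at 0 in a KC group, summed to 177 to 320.0 CPM in CRE- KCs, 166 to 484 in Tim4+ KCs and 364 to 874 in Tim4- KCs. Of these, *Ccr2* had medians of 5.03, 23.3 and 116 CPM. The 8 liver endothelial markers summed to 612 to 1757 CPM in CRE- KCs, 1034 to 2884 CPM in Tim4+ KCs and 377 to 537 CPM in Tim4- KCs, also with none at 0. The 6 B cell markers, none at 0 in a KC group, summed to 50.5 to 93.4 CPM (median 62.0) in CRE- KCs, 23.5 to 55.4 (median 40.2) in Tim4+ KCs and 50.8 to 127 (median 90.3) in Tim4- KCs, and were higher in the Tim4- sample of each same-numbered pair of sorts. The 7 neutrophil markers in the files summed to 47.4 to 97.0 CPM in CRE- KCs, 67.7 to 121 in Tim4+ KCs and 100.01 to 122 in Tim4- KCs, with *Ngp* at 0 in all KC groups. The part of these cells and of handling in the *Nfkbia* difference was not tested.

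The third question was how the family in each CRE+ AM sort of the *Itgax-cre* strain differed from that in CRE- AMs. In CD11b- AMs *Rela* fell and *Nfkbie* and *Nfkbid* rose against CRE- AMs, so that 3 members passed in a comparison in which 25.7% of 11573 genes did. *Rela*, the main subunit, was 192, 186, 187, 168 and 214 CPM in CRE- AMs and 119, 145, 129, 150.5 and 152 CPM in CD11b- AMs. Each CD11b- sample was under each CRE- sample, as in 18% of all genes without overlap in either direction. The log2 fold change was -0.45 (SE 0.08, adjusted p = 0.00025 from edgeR).

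*Nfkbie* was 25.5, 34.5, 41.2, 31.0 and 37.2 CPM in CD11b- AMs against 21.2 to 26.4 CPM in CRE- AMs. Only CD11b- replicate 1 reached into the CRE- range, and the log2 fold change was 0.50 (SE 0.14, adjusted p = 0.010 from edgeR). *Nfkbid* was 53.1, 92.1, 62.2, 46.4 and 55.2 CPM, against 41.3 to 49.1 CPM in CRE- AMs. The log2 fold change was 0.46 (SE 0.14, adjusted p = 0.019), and without replicate 2, which was the highest, it was 0.27 (adjusted p = 0.0498). With all 33 samples in the fit *Nfkbid* did not pass (adjusted p = 0.14). Replicate 1 of the CD11b- AMs had the lowest *Rela*, *Rel*, *Relb*, *Nfkbia*, *Nfkbie* and *Nfkbiz* levels of its group. Without it *Nfkbia* (log2 fold change 0.30, adjusted p = 0.034) and *Nfkbiz* (0.69, adjusted p = 0.022) passed in addition. Without CRE- replicate 5 *Rel* passed as well (-0.38, adjusted p = 0.028). The median over the members was 0.06, beside 0.003 over all genes.

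In CD11b+ AMs 5 members passed against CRE- AMs, where 43.2% of genes did. *Nfkbie*, *Nfkbiz* and *Relb* rose, and *Nfkb1* and *Nfkbia* fell. *Nfkbie* was 40.3, 42.9, 61.1, 42.4 and 54.5 CPM in CD11b+ AMs, all above the highest CRE- sample (26.4), with a log2 difference of 0.99 (SE 0.14, adjusted p = 5.6198e-06 from edgeR). *Relb* was 36.03, 41.1, 60.7, 40.8 and 55.0 CPM against 20.6, 30.6, 29.9, 31.7 and 29.7 CPM, again without overlap, with a log2 difference of 0.70 (SE 0.15, adjusted p = 0.00065). *Nfkbiz*, an early inflammatory gene in macs, was 53.5, 65.4, 50.4, 97.6 and 70.9 CPM against 23.3, 40.4, 31.6, 46.5 and 30.4 CPM. These groups did not overlap either, and the log2 fold change was 0.96 (SE 0.25, adjusted p = 0.0037).

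*Nfkb1* was 32.4, 26.8, 28.7, 33.3 and 31.4 CPM in CD11b+ AMs and 46.7, 42.4, 42.0, 34.9 and 44.98 CPM in CRE- AMs, so every CD11b+ sample was lower, and the log2 fold change was -0.48 (SE 0.10, adjusted p = 0.00082 from edgeR). *Nfkbia* was 174, 236, 180.4, 196 and 183 CPM against 222, 248, 229, 261 and 242 CPM. CD11b+ replicate 2 lay among the CRE- samples, and the log2 difference of -0.32 (SE 0.11, adjusted p = 0.028) did not pass without CD11b+ replicate 1, 3 or 5 or CRE- replicate 2 or 4 (adjusted p = 0.056 to 0.069). *Nfkbid* was 49.7, 60.1, 59.8, 62.9 and 50.6 CPM, above every CRE- sample, yet did not pass (log2 fold change 0.32, SE 0.14, adjusted p = 0.070). It passed when CD11b- replicate 2 or 4, which share the fit, was left out (adjusted p = 0.0084 and 0.0499). In all, 5 members did not overlap between CD11b+ and CRE- AMs, beside 32.6% of genes. *Rela* (205 ± 12.1 CPM, n = 5), *Rel* (29.5 ± 3.15), *Nfkb2* (90.0 ± 19.1) and *Nfkbib* (61.7 ± 4.28) had log2 fold changes between 0.10 and 0.20 and did not pass. *Nfkbib* passed without CRE- replicate 5 (log2 fold change 0.27, adjusted p = 0.033 from edgeR).

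Between the CD11b+ and CD11b- AMs of CRE+ mice 7 members passed, where 36.4% of genes did, and 4 did not overlap, beside 25.9% of genes. *Rela*, *Rel*, *Relb*, *Nfkbib* and *Nfkbie* were higher in CD11b+ cells and *Nfkb1* and *Nfkbia* lower. The median over the members was 0.38 on the log2 scale, beside 0.02 over all genes. *Rela* was 198, 199, 218, 218 and 193 CPM in CD11b+ AMs, above all the CD11b- samples, with a log2 difference of 0.55 (SE 0.08, adjusted p = 1.5694e-05 from edgeR). *Rel* was 26.5, 32.1, 31.1, 32.1 and 25.7 CPM against 20.3, 21.5, 21.5, 23.5 and 21.8 CPM, with a log2 difference of 0.43 (SE 0.12, adjusted p = 0.011). That call was lost when all 33 samples shared the fit (adjusted p = 0.086).

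For *Relb* the CD11b- AMs were at 23.4, 30.5, 34.2, 28.5 and 29.1 CPM, below every CD11b+ sample, and the log2 fold change was 0.67 (SE 0.15, adjusted p = 0.0014 from edgeR). For *Nfkb1* they were at 47.3, 51.8, 37.6, 41.7 and 46.2 CPM, above every CD11b+ sample, and the log2 fold change was -0.57 (SE 0.10, adjusted p = 0.00024). *Nfkbia* overlapped, with 202, 354, 297, 249 and 283 CPM in CD11b- AMs, and its log2 fold change was -0.53 (SE 0.11, adjusted p = 0.0013). *Nfkbie* (log2 fold change 0.50, SE 0.13, adjusted p = 0.0068) and *Nfkbib* (0.33, SE 0.10, adjusted p = 0.014) overlapped as well. *Nfkbiz*, at 22.4, 76.3, 53.7, 48.8 and 43.2 CPM in CD11b- AMs, did not pass (0.45, adjusted p = 0.16) but passed without CD11b- replicate 2 (0.67, adjusted p = 0.035). Thus *Nfkbie* was higher in both CRE+ AM sorts, *Rela* was lower only in the CD11b- sort by the tests made, and the *Rela* levels of the 2 CRE+ sorts differed directly. The CD11b- and CD11b+ comparisons share the CRE- AM samples. No member passed with more than a 2-fold change in a comparison that involved CRE+ cells, beside 2.31%, 5.45% and 8.82% of genes among KCs, 6.5%, 10.2% and 15.3% among AMs and 8.15% in the interaction of organ and deletion.

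**Figure D3:**
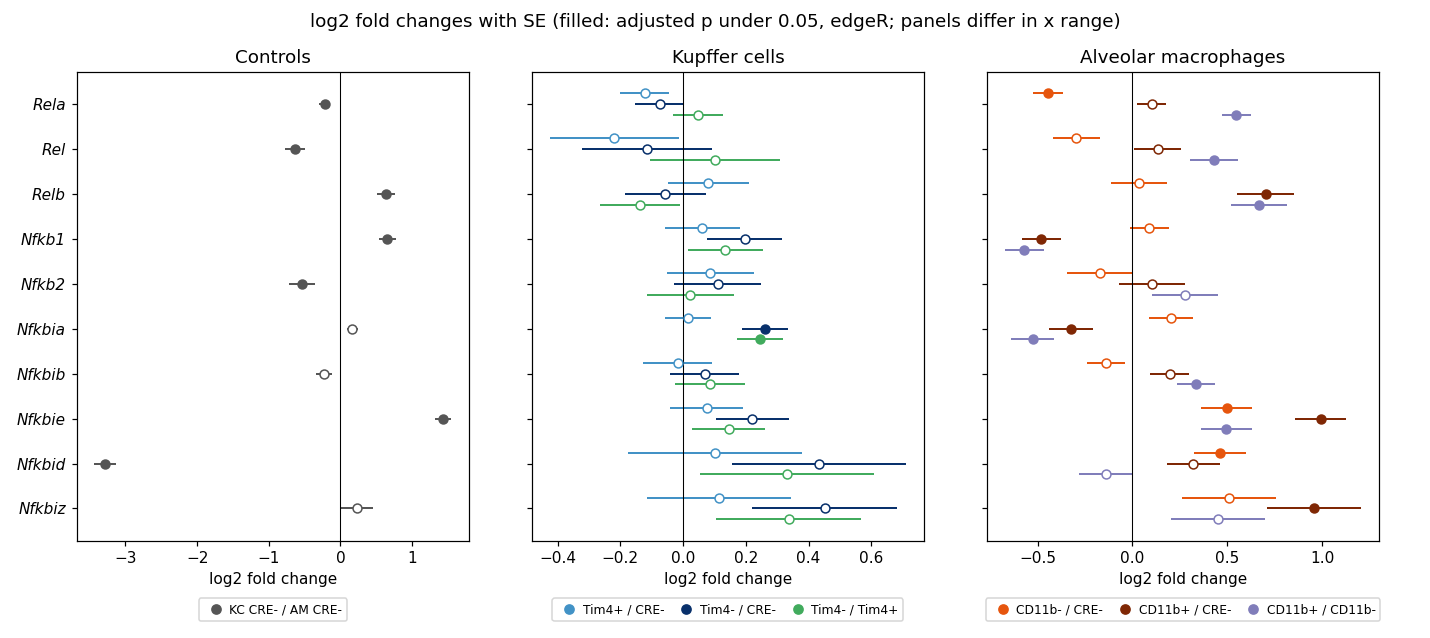
Log2 fold changes of the 10 members in the 7 group comparisons (edgeR), with bars of 1 SE; filled symbols mark an adjusted p under 0.05. Within the liver the filled symbols are those of *Nfkbia* in Tim4- cells (0.26 and 0.24), and *Nfkbiz* and *Nfkbid* lie further from 0 without passing. In AMs *Nfkbie* and *Relb* reach 0.99 and 0.70 in CD11b+ cells and *Nfkb1* falls by 0.48.

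Markers of other cells moved with the CD11b sorts too. Of 8 neutrophil markers 7 were in the files, and they summed to 91.6 to 117 CPM in CRE- AMs, 1025 to 2647 CPM in CD11b- AMs and 8365 to 10721 CPM in CD11b+ AMs. Among them *S100a8* had medians of 4.52, 611 and 4380 CPM, whereas *Ngp* was at 0 in CRE- and CD11b- AMs and had a median of 0.715 CPM in CD11b+ AMs. The 8 lung epithelial markers summed to 115 to 153 CPM, 504 to 602 CPM and 1329 to 1697 CPM in the 3 AM groups, with none at 0 in a group. They include *Epcam*, and the paper reports that AMs lacking *Zeb2* express EpCam themselves. The 8 dendritic cell markers summed to 10.2 to 15.9, 26.0 to 32.7 and 38.0 to 65.6 CPM, without overlap between the 3 groups and with none at 0 in a group. The 6 monocyte markers summed to 600 to 1058, 80.6 to 177 and 356 to 642 CPM. The dissociation genes summed to 8377 to 9301, 6139 to 7549 and 8153 to 9900 CPM, with 3 of 22 higher and 11 lower in CD11b- AMs and 9 higher and 6 lower in CD11b+ AMs against CRE- AMs. The part of these cells and of handling in the member differences was not tested.

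Around the members, 32 genes of the IKK complex and the steps around it, 18 negative regulators and 36 target genes were counted in the same tests. The 32 are called upstream genes here, although not all act before IKK, as with *Cul1* and *Skp1a*. *Nfkbia* and *Tnfaip3* are also in the target list, and *Tnfaip3* is in the list of negative regulators. In CRE- KCs against CRE- AMs, 12 upstream genes were higher and 7 lower, 5 negative regulators higher and 6 lower (17 tested), and 14 targets higher and 15 lower (34 tested), beside 33.3% higher and 29.9% lower of all genes. Of the kinases, *Ikbke*, which encodes IKKε, was at 36.04 ± 7.53 CPM in KCs (n = 6) and 3.55 ± 1.34 CPM in AMs (n = 5), and *Map3k8* at 77.2 ± 12.8 and 23.0 ± 3.16 CPM (log2 fold changes 3.37 and 1.78, adjusted p = 6.2017e-08 and 2.3825e-08 from edgeR). *Tnfaip3*, the gene for the ubiquitin-editing enzyme A20, was at 26.9 ± 6.82 and 174 ± 25.9 CPM (-2.66, adjusted p = 1.9599e-09). *Bcl3*, a nuclear IκB protein, was at 56.9 ± 4.78 and 19.3 ± 4.13 CPM (1.59, adjusted p = 1.6555e-07). Among the targets, the chemokine genes *Cxcl2* (1.29 ± 0.305 and 166 ± 34.5 CPM) and *Ccl3* (6.53 ± 3.21 and 150 ± 35.6 CPM) were lower in KCs. The adhesion molecule gene *Vcam1* (584 ± 233 and 0.573 ± 0.962 CPM) and the receptor gene *Cd40* (44.5 ± 8.93 and 0.057 ± 0.086 CPM) were higher.

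In Tim4+ KCs, where 454 of 12500 genes rose and 307 fell (6.09% in all), few genes of the lists passed. Of 32 upstream genes 0 passed by edgeR (4 with an unadjusted p under 0.05, 0 by limma-voom and by DESeq2). Of 18 negative regulators 2 rose, *Pdlim2* (log2 fold change 0.68, adjusted p = 0.0020 from edgeR) and *Traf1*, and of 34 targets tested 3 rose and 1 fell. *Ccl4* rose from 7.91 ± 2.69 to 17.1 ± 5.65 CPM (n = 6 each, adjusted p = 0.019, but 0.052 without Tim4+ replicate 6) and *Tnfrsf1b*, a receptor for TNF, fell by 0.39 on the log2 scale (adjusted p = 0.00077). The call for *Saa3* rests on Tim4+ replicate 4, at 209 CPM, and was lost without it (adjusted p = 0.64) and without CRE- replicate 1, 2, 3, 4 or 6 (adjusted p = 0.051 to 0.083). It did not pass with limma-voom (adjusted p = 0.31), the *Ddx3y* covariate (adjusted p = 0.15) or the replicate block (adjusted p = 0.19), and DESeq2 gave it no adjusted p.

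In Tim4- KCs 9 targets rose and 3 fell against CRE- KCs, where 1522 of 12500 genes rose and 1647 fell (25.4% in all), with a median log2 fold change of 0.14 over the 34 tested beside -0.03 over all genes. The chemokine genes *Ccl3* (6.53 ± 3.21 to 20.4 ± 4.49 CPM), *Ccl4* (7.91 ± 2.69 to 28.6 ± 9.28) and *Ccl5* (4.74 ± 1.17 to 11.3 ± 7.03) rose by 1.63, 1.84 and 1.24 on the log2 scale (adjusted p = 0.00032, 5.9225e-05 and 0.0073 from edgeR, n = 6 each). Without Tim4- replicate 3 the *Ccl5* value was 0.82. *Vcam1*, which endothelial cells express as well, went from 584 ± 233 to 250 ± 107 CPM (log2 fold change -1.24, adjusted p = 0.0018). The endothelial markers given above were lower in the same samples, and the part of endothelial cells in the *Vcam1* difference was not tested. In the upstream list, *Myd88* rose by 0.31 and *Ripk1* and *Cul1* fell by 0.42 and by 0.36 on the log2 scale (adjusted p = 0.013, 0.011 and 0.0038). Among the negative regulators, *Pdlim2* and *Traf1* rose again, and *Otud7b* fell by 1.18 on the log2 scale (adjusted p = 0.0019). Between Tim4- and Tim4+ KCs, 0 upstream genes passed by edgeR (5 with an unadjusted p under 0.05, 1 by limma-voom and 1 by DESeq2), 1 negative regulator fell and 3 targets rose and 4 fell, beside 480 genes that rose and 953 that fell of 12500 (11.5% in all). The samples of these sorts pair by replicate number, and with the number as a block 1 upstream gene and 11 targets passed, beside 1684 of 12500 genes.

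In AMs more targets and negative regulators rose than fell. Of all 11573 genes tested, 1534 rose and 1438 fell in CD11b- AMs (25.7% in all), and 2635 rose and 2369 fell in CD11b+ AMs (43.2% in all). In CD11b- AMs 13 of 32 targets tested rose and 2 fell against CRE- AMs, and in CD11b+ AMs 21 rose and 4 fell, with median log2 fold changes of 0.42 and 1.04 beside 0.003 and -0.005 over all genes. *Il1a* (149 ± 17.7 to 343 ± 48.6 CPM, n = 5 each) and *Ier3* (31.2 ± 9.77 to 93.7 ± 20.4 CPM) rose by 1.20 and 1.59 on the log2 scale in CD11b- AMs (adjusted p = 8.8525e-09 and 1.0933e-06 from edgeR). *Lcn2*, which neutrophils and epithelial cells also express, was at 0.205 ± 0.166 CPM in CRE- AMs, 65.2 ± 35.4 in CD11b- AMs and 136 ± 27.4 in CD11b+ AMs. The targets that fell in CD11b+ AMs were *Nfkbia*, *Tnf*, *Icam1* and *Gadd45b*. Of these *Tnf* was at 65.4 ± 15.1 CPM in CRE- AMs, 72.1 ± 17.1 in CD11b- AMs and 37.9 ± 8.34 in CD11b+ AMs (log2 fold change -0.80 for CD11b+ against CRE- cells, adjusted p = 0.00084).

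Negative regulators rose in 7 and fell in 1 of 18 cases in CD11b- AMs and rose in 12 and fell in 2 in CD11b+ AMs. *Tnfaip3* went from 174 ± 25.9 CPM in CRE- AMs to 272 ± 32.9 and 365 ± 49.8 CPM (log2 fold changes 0.65 and 1.06, adjusted p = 0.00019 and 1.4825e-07 from edgeR). *Tank* rose by 0.75 and 0.94, whereas *Tnip2*, which binds A20, fell by 0.64 and by 0.85 on the log2 scale. In the upstream list, 3 genes rose and 4 fell in CD11b- AMs, and 9 rose and 5 fell in CD11b+ AMs. *Ikbke* went from 3.55 ± 1.34 to 13.9 ± 1.99 and 71.0 ± 13.5 CPM, *Map3k8* from 23.0 ± 3.16 to 37.5 ± 5.22 and 52.2 ± 7.74 CPM and *Traf5* from 22.8 ± 2.41 to 15.998 ± 2.09 and 7.74 ± 1.17 CPM, each past the threshold in both sorts. Between CD11b+ and CD11b- AMs, 8 upstream genes, 8 negative regulators and 17 targets were higher and 4, 1 and 3 lower, beside 2295 and 1920 of 11573 genes (36.4% in all).

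**Figure D4:**
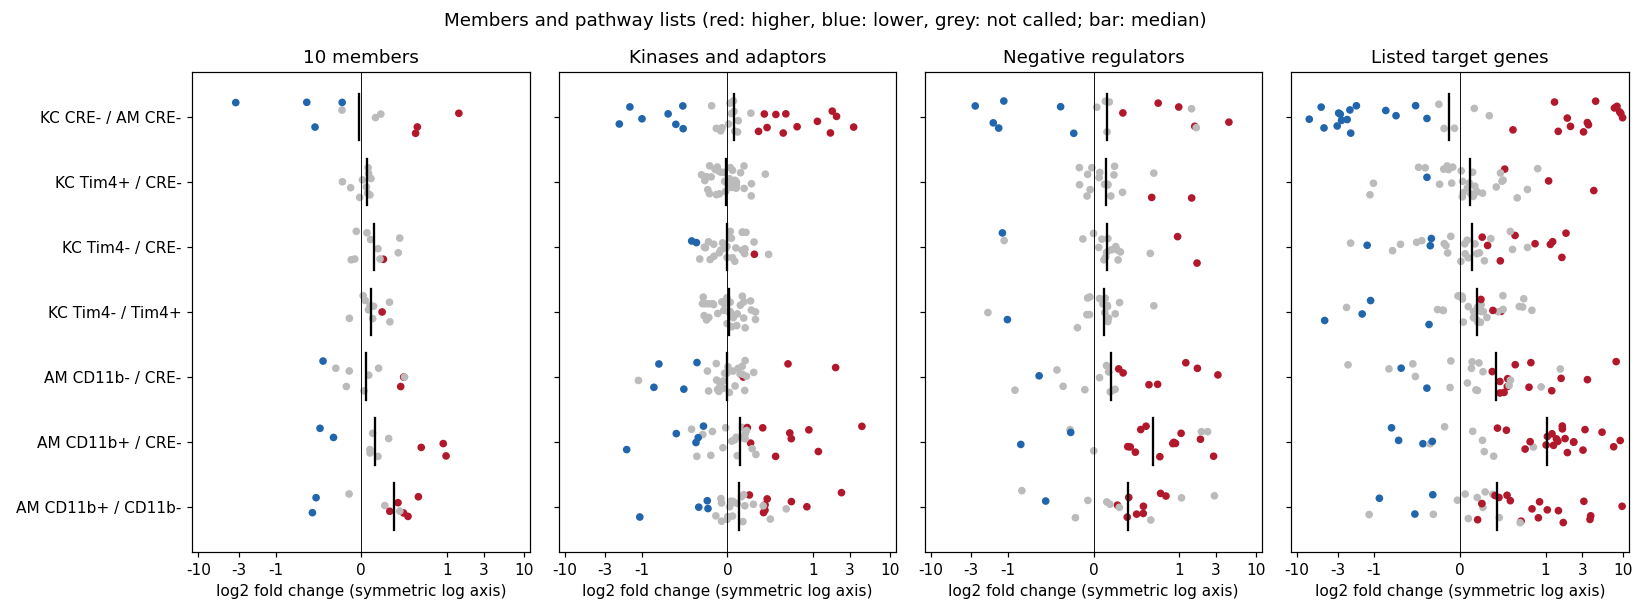
Log2 fold change of every tested gene (x axis, symmetric log scale) in each group comparison (rows), 1 panel each for the members and the 3 lists; each point is a gene, red if higher and blue if lower at an adjusted p under 0.05 in edgeR and grey if not, and a bar marks the median. In CD11b+ AMs against CRE- AMs 21 of 32 targets are red and their median is 1.04, whereas no member or upstream gene is colored in Tim4+ KCs.

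Whether the change with CRE differed between liver and lung was tested with an interaction term, the mean change of both CRE+ KC sorts less that of both CRE+ AM sorts. Tissue and Cre line cannot be told apart in it. Of the 10 members 1 passed by edgeR, where 19.5% of 13294 genes did, and 2 had an unadjusted p under 0.05. *Nfkbie* had an interaction of -0.59 (SE 0.16, adjusted p = 0.0068), since its changes were 0.08 and 0.22 in the KC sorts and 0.50 and 0.99 in the AM sorts. *Nfkb1* was next, with 0.33 (SE 0.14, adjusted p = 0.10). Of the 36 targets 3 had a more positive change in KCs and 13 a more positive change in AMs.

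When only Tim4- KCs and CD11b+ AMs entered the contrast, a choice made after the data were seen, 4 members passed, where 30.5% of genes did. The change was more positive in AMs for *Relb* (-0.75, SE 0.20, adjusted p = 0.0047 from edgeR) and *Nfkbie* (-0.77, SE 0.18, adjusted p = 0.0014), and more positive in KCs for *Nfkb1* (0.68, SE 0.16, adjusted p = 0.0017) and *Nfkbia* (0.59, SE 0.14, adjusted p = 0.0013). *Nfkbia* rose in Tim4- KCs and fell in CD11b+ AMs, and is the member whose calls went in opposite directions. With Tim4+ KCs and CD11b- AMs alone, 0 members passed by edgeR (2 with an unadjusted p under 0.05), where 8.52% of genes did.

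**Figure D5:**
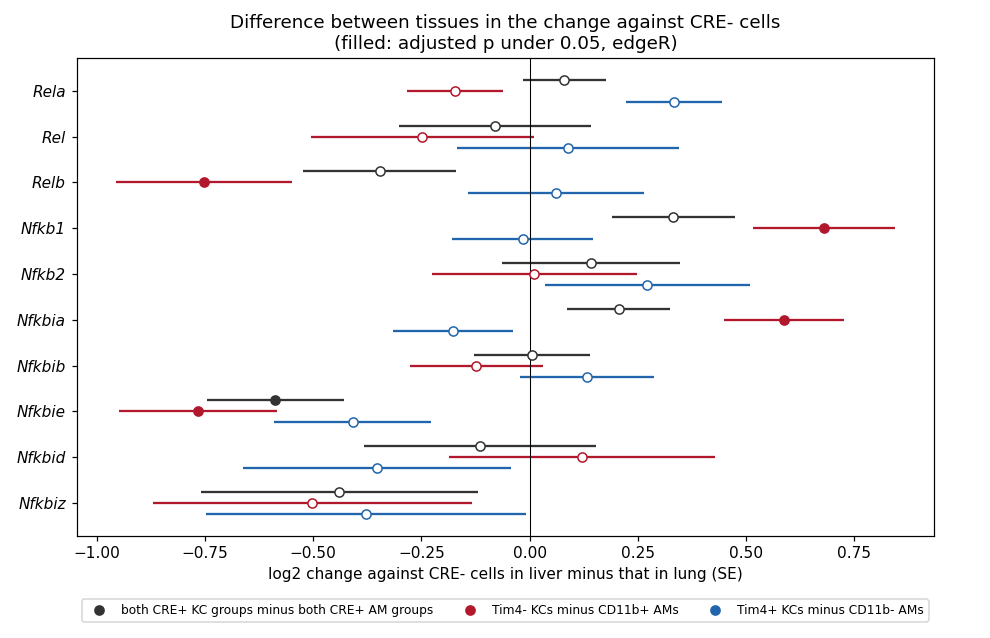
Difference between liver and lung in the change of CRE+ against CRE- cells for the 10 members (log2 scale, edgeR, bars of 1 SE), for both sorts together and for each pair of sorts; filled symbols mark an adjusted p under 0.05. *Nfkbie* passes with both sorts at -0.59, and *Relb*, *Nfkb1*, *Nfkbia* and *Nfkbie* pass with Tim4- KCs and CD11b+ AMs.

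Genes with a pattern like that of a member were looked for among 8276 genes with a mean of at least 10 CPM, by the root mean square difference of centred log2 CPM over the 33 samples. The samples share their groups and depth, so this likeness is a description. The nearest genes were *Camta2* (0.14) for *Rela*, *Hdgf* (0.15) for *Nfkbib*, *Stard7* (0.18) for *Nfkbia* and *Lyn* (0.20) for *Nfkb1*. For *Nfkbie* they were *Slc25a10* (0.22) and *Il10rb* (0.25), where the median over all genes was 0.74. The remaining subunits had *Ddx3x* (0.25) for *Rel*, *Ik* (0.23) for *Relb* and *Syvn1* (0.22) for *Nfkb2*. *Nfkbid* and *Nfkbiz* had larger distances to their nearest genes, *Alas1* (0.40) and *Trim27* (0.41), where the medians over all genes were 1.67 and 0.64. The distance grows with a gene's own variation, which was largest for *Nfkbid* (SD 1.71 in log2 CPM), so it does not rank the members.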

How the data were processed

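The authors trimmed reads with Trimmomatic 0.35, aligned them to mm10 with TopHat2 2.1.0 and counted reads per gene symbol with HTSeq-count. FastQC 0.11.4 and SAMtools 0.1.18 are also named in the submitters' processing notes. The annotation and the strand setting of the counting are not given in the sources used here. The deposited values are raw counts, and 5 tally rows per file (5.88% to 10.1% of reads) were left out. No column was left unmapped to a sample.

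Groups and replicate numbers came from the labels. The members and gene lists were chosen with earlier results of these data known. Counts were tested in R 4.3.3 with edgeR 4.0.16 (filterByExpr, TMM, quasi-likelihood F-test), p-values were adjusted by Benjamini-Hochberg over all genes tested, and a gene was called at an adjusted p under 0.05. CRE- KCs and AMs, the 18 KC samples, the 15 AM samples and all 33 samples (interaction) each shared a fit, without a block. SEs are the log2 fold change divided by the square root of F. CPM used TMM library sizes over the 33 samples, and log2 CPM an offset of 0.5. The scripts were tested on simulated data, and no pair of replicates agreed within sampling noise. Alternatives were limma-voom (limma 3.58.1), DESeq2 1.42.0, RLE factors, no filter, at least 10 counts in every sample, every sample in a single fit, a *Ddx3y* covariate, the replicate number as a block, an absolute log2 fold change above 1, and each library left out.

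Genes of a list were named where they passed with at least 10 CPM in the higher group and were among the 3 largest increases or decreases. *Traf1*, at a lower level, was named after its values were seen. Exon lengths and positions are from GENCODE M21, where 95.72% of symbols were found. Replicate numbers paired Tim4- with Tim4+ KCs, where deviations from the group means correlated in every same-numbered pair (r across genes at least 0.165, mean 0.249, against -0.0497 for other pairs).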

Additional observations from a re-analysis of the deposited data

Results flagged for a closer look

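Of 60 groups of values (10 members in 6 groups), 4 had a sample set apart from the others by Dixon's criterion, where chance gives about 1 in 20. *Rela* was at 124.97 CPM in replicate 1 of the Tim4- KCs, the shallowest library, where the other samples reached 166.95. *Relb* was at 20.568 CPM in replicate 1 of the CRE- AMs, below the group median of 29.9. *Nfkb2* was at 81.852 CPM in replicate 4 of the CRE- KCs, above the group median of 52.6, and *Nfkbib* at 54.937 CPM in replicate 3 of the Tim4+ KCs, above the group median of 43.6.

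The change of CRE+ against CRE- cells differed between liver and lung for *Nfkbie*, with an interaction of -0.58804 on the log2 scale over both sorts of each tissue (edgeR, 10 members tested). In the contrast of Tim4- KCs with CD11b+ AMs the interactions that passed were -0.75338 for *Relb*, 0.68035 for *Nfkb1*, 0.58726 for *Nfkbia* and -0.76673 for *Nfkbie*. That contrast was chosen after the data were seen.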

How the results depend on the processing

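Of the 80 log2 fold changes of members (10 genes in 8 comparisons), none that was called changed direction under any alternative, and 15 that were not called did. A demand for an absolute log2 fold change above 1 left 2 members in CRE- KCs against CRE- AMs and 0 in each other comparison, by its construction. With all 33 samples in the fit, 0 members passed between Tim4- and Tim4+ KCs, beside 1738 of 13294 genes. The interaction of Tim4- KCs and CD11b+ AMs gave 4 members and that of Tim4+ KCs and CD11b- AMs 0, both added after the data were seen. With 1 library left out at a time, the members called numbered 5 to 8 in CRE- KCs against CRE- AMs, 0 in Tim4+ KCs, 1 to 2 in Tim4- against CRE- KCs, 0 to 1 in Tim4- against Tim4+ KCs, 3 to 5 in CD11b- AMs, 4 to 6 in CD11b+ AMs, 7 to 8 between CD11b+ and CD11b- AMs, and 1 in the interaction. The share of all genes called in each of these refits is not given here, so the ranges are a description.

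Uncalled values that turned sign were 0.0023 for *Nfkbib* in Tim4+ KCs with all samples in the fit, -0.0096 for *Rel* in Tim4- against Tim4+ KCs with limma-voom, -0.025 for *Relb* in CD11b- AMs with the *Ddx3y* covariate (no AM sample had *Ddx3y* over 1 CPM, so that covariate says little there), and -0.0166, -0.0172 and -0.0176 for *Nfkbib* in the interaction with DESeq2, RLE factors and at least 10 counts. With libraries left out, the ranges that crossed 0 in Tim4+ KCs were -0.0185 to 0.106 (*Nfkb1*), -0.0137 to 0.0579 (*Nfkbia*), -0.0760 to 0.0452 (*Nfkbib*), -0.0273 to 0.263 (*Nfkbid*) and -0.0604 to 0.326 (*Nfkbiz*). In Tim4- against CRE- KCs they were -0.311 to 0.0103 (*Rel*) and -0.102 to 0.0101 (*Relb*), and against Tim4+ KCs -0.0922 to 0.229 (*Rel*) and -0.0456 to 0.0890 (*Nfkb2*). In AMs they were -0.0641 to 0.104 (*Relb*, CD11b- against CRE-), -0.00592 to 0.233 (*Nfkb2*, CD11b+ against CRE-) and -0.228 to 0.0508 (*Nfkbid*, CD11b+ against CD11b-). In the interaction they were -0.176 to 0.00261 (*Rel*), -0.0709 to 0.0676 (*Nfkbib*) and -0.194 to 0.0107 (*Nfkbid*). The cause of these changes was not tested.

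The replicate block lost no member call and added 4, for *Nfkbia* in KCs against AMs (0.19), *Nfkbiz* in CD11b- AMs (0.48) and *Nfkb2* (0.28) and *Nfkbiz* (0.50) between CD11b+ and CD11b- AMs, so 8, 4 and 9 members passed there. With the block 7370 of 12145, 3151 of 11573 and 4426 of 11573 genes passed in the same comparisons, in that order. Of these comparisons none met the criterion for pairing, although in the last all 5 samples correlated best with their own number (lowest r 0.0858). In the KC comparisons the least precise members were *Nfkbid*, *Nfkbiz* and *Rel*, with SEs of 0.28, 0.23 and 0.21, and *Nfkbid* was also the member with the fewest reads.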
